A study of Mus musculus with 10 samples.

Results

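The genes described here are the 4 mouse FoxO transcription factors (Foxo1, Foxo3, Foxo4 and Foxo6) and 5 genes widely used as readouts of FoxO activity (Sesn1, Sesn3, Ccng2, Fbxo32 and Txnip). They were taken by their symbols in the GENCODE mouse annotation, and all 9 were found among the 18381 genes of the count table. First lower molars of wild type C57BL/6JOlaHsd embryos at embryonic day 14 were kept for 6 h in hanging drops, with recombinant mouse IGF1 (insulin-like growth factor 1) at 750 ng per ml or with the same volume of its vehicle, phosphate-buffered saline with bovine serum albumin. The teeth came from 5 embryos (1, 2, 3, 4 and 6), with one molar of an embryo in IGF1 and the other in vehicle. This makes 5 IGF1 and 5 control teeth, each with its own RNA sequencing library. Below, values of single teeth are always given in this order of embryos. A whole cultured molar mixes epithelium, mesenchyme and other cells, and fewer cells of a type cannot be told apart from less RNA per cell.

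FoxO factors are forkhead proteins that switch on genes for growth restraint, protein breakdown and stress resistance. Insulin and IGF1 activate the kinase AKT through PI3K, AKT phosphorylates FoxO proteins, and 14-3-3 proteins then hold them in the cytoplasm, away from their target genes. Genes that FoxO factors activate therefore tend to fall after insulin or IGF1. RNA counts measure neither the phosphorylation of the FoxO proteins nor their place in the cell.

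Fbxo32 fell to 40.1% and Txnip to 45.0% of the control level in the IGF1 teeth, and Foxo4 fell by a smaller amount, to 77.8%. Foxo6, the rarest FoxO transcript in these teeth, rose. Foxo1, Foxo3, Sesn1, Sesn3 and Ccng2 did not pass the test. All 9 genes passed the filter on low counts, and 1 rose and 3 fell by edgeR's quasi-likelihood test with embryo as a block, at a Benjamini-Hochberg adjusted p-value under 0.05 over 14504 genes. Of all genes tested, 11.5% were called by the same test, 6.72% as higher and 4.76% as lower. The groups did not overlap in 3 of the 9 genes, against 7.25% of all genes. Under the alternatives referred to below, the share of all genes called was 10.2% with DESeq2, 12.0% with limma-voom, 8.29% with no filter on low counts and 6.12% with no embryo block. It was 7.73% without embryo 1, 8.17% without embryo 2, 11.0% without embryo 3, 6.8% without embryo 4 and 6.82% without embryo 6. Log2 fold changes are of IGF1 over control, with their standard error (SE), and the median over all genes tested was -0.00.

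**Figure D1:**
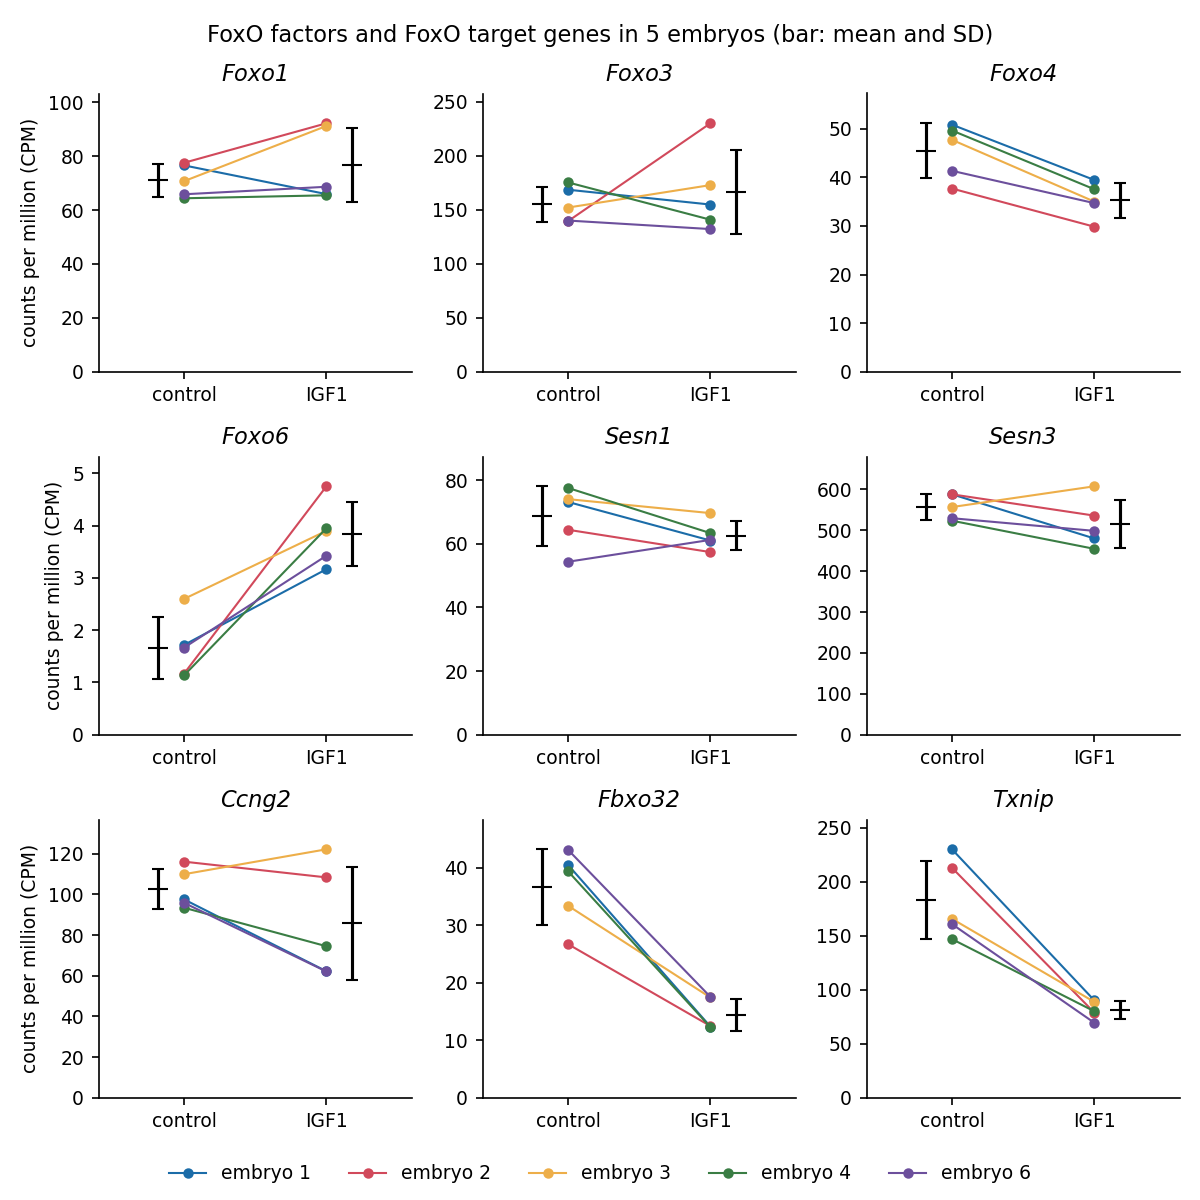
CPM (counts scaled to library size, vertical axis from 0) of each of the 9 genes in the 5 control and 5 IGF1 teeth. Lines join the teeth of an embryo, and the bars give the mean and SD. The groups lie fully apart for Fbxo32, Txnip and Foxo6 and overlap for the other genes.

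Foxo1 (ENSMUSG00000044167, GRCm38 chr3:52268336-52353221, plus strand) is the factor best known for insulin control of liver glucose output. Its level in CPM (counts scaled to library size, after TMM normalization) was 76.6, 77.6, 70.8, 64.4 and 65.9 in the control teeth and 65.9, 92.2, 91.2, 65.5 and 68.7 in the IGF1 teeth. The groups overlapped, and the IGF1 teeth of embryos 2 and 3 were the highest of all. The level was higher with IGF1 in 4 of 5 embryos, with a log2 fold change of 0.11 (SE 0.09, edgeR adjusted p = 0.481). The 95% interval ran from 94.2% to 124% of the control level. Exons of Gm20402, annotated on the opposite strand, share 674 bases with those of Foxo1. Strand use in the counting is not given in the sources used here, so reads in that stretch cannot be assigned to either gene. The opposite-strand genes named here, for Foxo1, Fbxo32 and Txnip, had no row and were not analysed.

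Foxo3 (ENSMUSG00000048756, chr10:42181841-42276755, minus strand) encodes a factor tied to stress resistance and quiescence. Its level was 169, 140, 152, 175 and 140 CPM in the control teeth and 155, 230, 173, 141 and 132 CPM in the IGF1 teeth. The IGF1 tooth of embryo 2 stood highest, and only embryos 2 and 3 had more Foxo3 with IGF1. IGF1 over control gave a log2 fold change of 0.08 (SE 0.13, edgeR adjusted p = 0.732), with an interval from 87.3% to 128% of control. Without embryo 2 the sign turned, to -0.08 (adjusted p = 0.649).

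Foxo4 (ENSMUSG00000042903, chrX:101254528-101260873, plus strand) is the X-linked member of the family. It measured 50.8, 37.7, 47.7, 49.6 and 41.3 CPM in the control teeth and 39.5, 29.8, 35.0, 37.5 and 34.7 CPM in the IGF1 teeth. The groups overlapped only through embryo 2, which had the lowest level in both. Within each of the 5 embryos the IGF1 tooth was lower, by log2 ratios from -0.44 to -0.25, a pattern found in 11.2% of all genes. The log2 fold change was -0.36 (SE 0.08, edgeR adjusted p = 0.0138), which is 77.8% of control (95% interval 69.0% to 87.7%). The call needed the comparison within embryos, since the adjusted p was 0.0728 without the embryo block, and it was 0.0570 without embryo 4.

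Foxo6 (ENSMUSG00000052135, chr4:120267079-120287349, minus strand) is the family member best known from the brain. It measured 1.72, 1.17, 2.60, 1.13 and 1.67 CPM in the control teeth, from 5, 8, 22, 8 and 11 reads. The IGF1 teeth had 3.17, 4.75, 3.90, 3.95 and 3.43 CPM, from 11, 40, 34, 28 and 24 reads. Every IGF1 tooth was above every control tooth, as for 4.21% of all genes. The log2 fold change was 1.24 (SE 0.31, edgeR adjusted p = 0.0250), or 236% of control with a wide interval from 148% to 378%. The adjusted p was 0.0891 without embryo 2, 0.0944 without embryo 4 and 0.0646 without embryo 6, with the log2 fold change between 1.05 and 1.29.

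**Figure D2:**
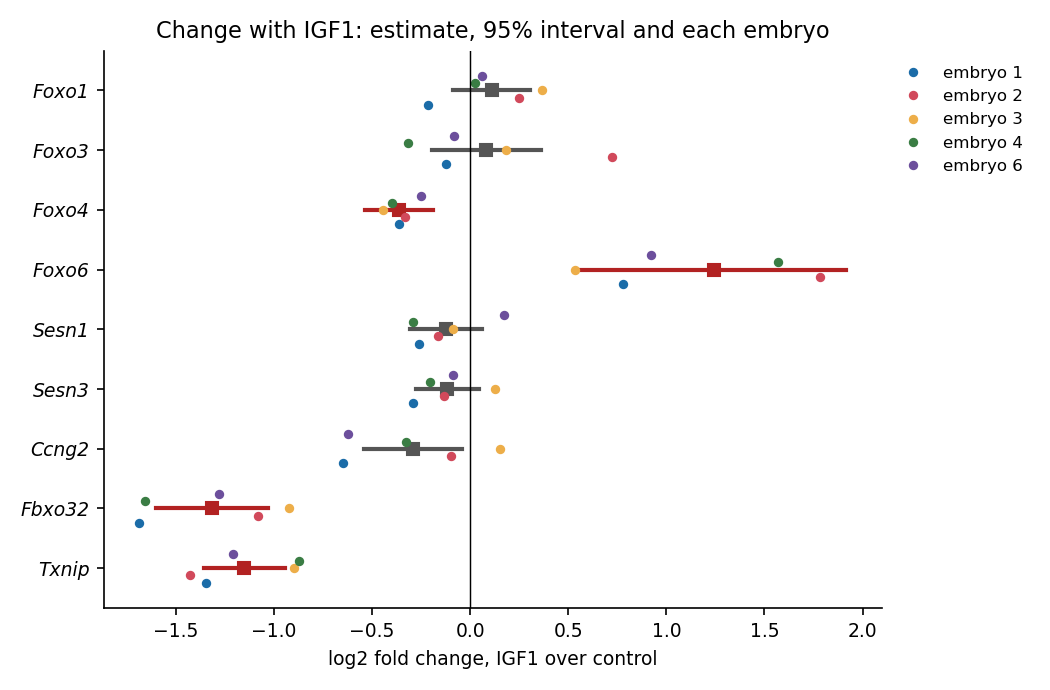
Log2 fold change of each gene, IGF1 over control, with its 95% interval from the edgeR fit and the log2 ratio of each of the 5 embryos as points. Fbxo32 (-1.32) and Txnip (-1.15) lie farthest below 0, Foxo6 (1.24) lies above it with the widest interval, and the intervals of Foxo1, Foxo3, Sesn1 and Sesn3 cross 0.

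Levels can be compared between genes only per length, here as CPM per kb of annotated exon. On this scale the control teeth had most Foxo3 (20.5 ± 2.17, SD, n = 5), then Foxo4 (13.0 ± 1.63), Foxo1 (8.20 ± 0.694) and Foxo6 (0.634 ± 0.226), and no control range touched the next. The summed FoxO level was 42.4 ± 3.63 in control teeth and 42.4 ± 5.91 in IGF1 teeth. Embryos differed in direction, as the sum was higher with IGF1 in embryos 2 (38.6 and 51.4) and 3 (42.9 and 44.9) and lower in embryos 1 (46.4 and 40.6), 4 (45.3 and 38.5) and 6 (38.6 and 36.7). Within that sum, Foxo4 made up 30.7% ± 1.57 in the control teeth and 24.4% ± 4.93 in the IGF1 teeth. The IGF1 shares were 27.9%, 16.6%, 22.4%, 28.0% and 27.2%, lowest in embryos 2 and 3, and the groups touched at 28.0%. The share of Foxo6 was 1.50% ± 0.525 in the control teeth, with a range from 0.958% to 2.31%. It was 3.47% ± 0.349 in the IGF1 teeth, from 2.98% to 3.93%. Foxo3 held 48.3% ± 1.67 and 51.3% ± 4.58, and Foxo1 held 19.5% ± 2.42 and 20.8% ± 1.82, in that order of groups. Shares of a sum are tied to each other, and they were not tested.

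Within embryos, the log2 ratio of Foxo4 was below that of Foxo1 in 5 of 5 embryos, with a mean difference of -0.46 (SD 0.25). It was also below that of Foxo3 in 5 of 5, with a mean difference of -0.44 (SD 0.40). An exact two-sided sign-flip test gave p = 0.0625 for each, the smallest value that 5 embryos allow, and 0.0625 after adjustment over the 4 pairs of genes compared in this way.

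**Figure D3:**
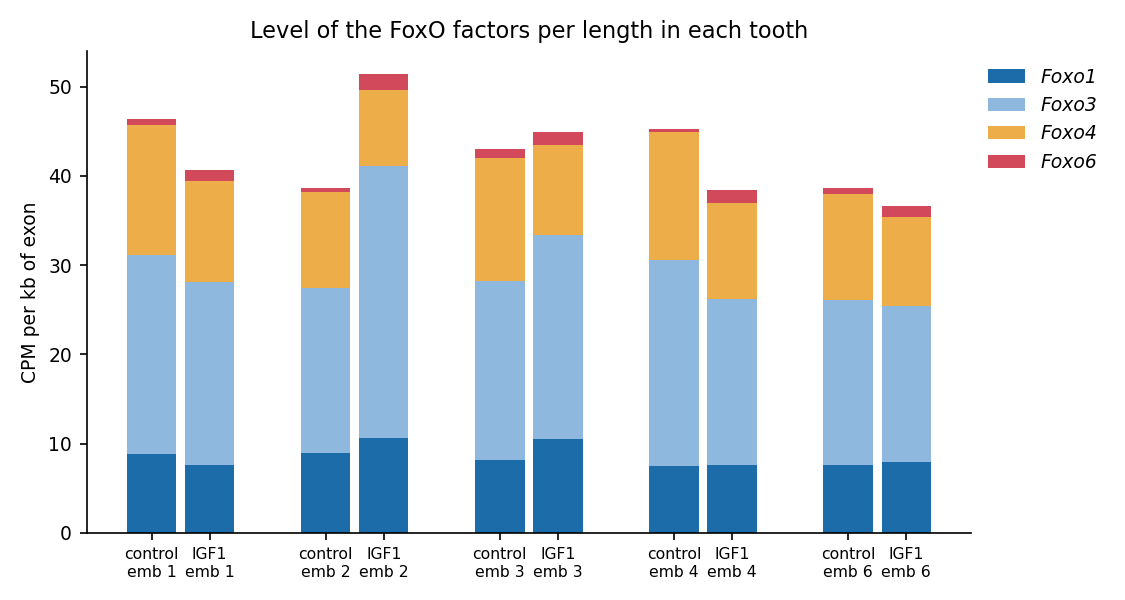
Level of the 4 FoxO factors in CPM per kb of exon, stacked from Foxo1 at the bottom to Foxo6 at the top for each control and IGF1 tooth. Foxo3 is the largest layer in each tooth and Foxo6 the thinnest, and the mean height is 42.4 in both groups, with higher IGF1 stacks in embryos 2 and 3 and lower ones in the others.

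Among the 5 targets named at the start, Fbxo32 (ENSMUSG00000022358, chr15:58175879-58214932, minus strand) showed the largest change. It encodes atrogin-1, a ubiquitin ligase subunit that rises in wasting muscle. Its level was 40.5, 26.7, 33.4, 39.4 and 43.2 CPM in the control teeth and 12.4, 12.5, 17.4, 12.3 and 17.6 CPM in the IGF1 teeth. The highest IGF1 tooth lay well under the lowest control tooth, a separation found downward in 3.03% of all genes. The log2 fold change was -1.32 (SE 0.13, edgeR adjusted p = 0.000154), or 40.1% of control (95% interval 32.9% to 48.9%), and it ranked 38 from the most negative of 14504 genes. The call held in each of the 12 alternatives run, with log2 fold changes from -1.43 to -1.23. Exons of the opposite-strand gene Gm15943 share 186 bases with Fbxo32.

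Because Fbxo32 is best known from muscle, skeletal muscle markers were read beside it. Of 14 markers, 12 had a row and 5 passed the filter, and by edgeR 0 of these 5 were called. The summed level of all 12 markers with a row ran from 42.6 to 123 CPM in control teeth and from 27.3 to 167 CPM in IGF1 teeth. This sum is not per length, and its largest part was Ttn. Ttn was at 63.6, 52.4, 64.7, 90.1 and 23.0 CPM in the control teeth. In the IGF1 teeth it was at 109, 48.6, 12.9, 54.3 and 17.6 CPM. The defining factor Myod1 was at 0.438 to 2.27 CPM in control and 0.230 to 2.12 CPM in IGF1 teeth. The muscle sum in the IGF1 tooth was 1.75, 0.981, 0.283, 0.707 and 0.798 times that of the control tooth in the 5 embryos, higher in 1 and lower in 4. The log2 ratios of Fbxo32 in the same order were -1.69, -1.08, -0.93, -1.66 and -1.28. The part of muscle content in the fall of Fbxo32 was not tested.

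Txnip (ENSMUSG00000038393, chr3:96557957-96561883, plus strand) encodes thioredoxin-interacting protein, an alpha-arrestin that limits glucose uptake. Its level was 230, 213, 166, 147 and 161 CPM in the control teeth and 90.1, 78.8, 88.7, 80.0 and 69.4 CPM in the IGF1 teeth. Control teeth were spread more widely than IGF1 teeth, and the groups did not overlap. The log2 fold change was -1.15 (SE 0.09, edgeR adjusted p = 4.02e-05), which is 45.0% of control (95% interval 39.0% to 51.9%), at rank 63 from the most negative. The call held in all 12 alternatives, from -1.22 to -1.08. Exons of the opposite-strand gene Gm15441 share 606 bases with Txnip.

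Txnip is known to be driven both by FoxO factors and by the glucose-sensing factor MondoA, and its promoter is shown because it holds motif letters for both. Below are the 250 bases before its RefSeq start (GRCm38.p6, chr3:96557707-96557956, plus strand), with matches in capitals.

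Txnip: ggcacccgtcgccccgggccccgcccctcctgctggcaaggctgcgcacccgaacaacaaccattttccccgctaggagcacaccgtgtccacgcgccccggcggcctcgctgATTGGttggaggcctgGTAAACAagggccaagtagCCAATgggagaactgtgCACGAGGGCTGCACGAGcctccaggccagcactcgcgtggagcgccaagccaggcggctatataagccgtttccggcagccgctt

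The capitals mark, in order, CCAAT on the minus strand, the FoxO core GTAAACA at -121 to -115 from the start, CCAAT on the plus strand, and the carbohydrate response element, a pair of CACGNG boxes 5 bases apart, at -85 to -69. None of these matches overlap. Both strands were searched in 300-base windows, from 250 bases before to 50 after the start. GTAAACA was found in 3.66% of 32544 such windows, the carbohydrate response element in 0.0492% (16 windows) and CCAAT in 37.4%. RefSeq windows were at hand for 6 of the 9 genes (7 windows), and GTAAACA was in those of Txnip and Sesn1. Foxo4, Foxo6 and Fbxo32 had no window and were not searched. The insulin response element CAAAACAA was in the window of Ccng2, and in 2.52% of all windows. Short stretches around these matches, Sesn1 at chr10:41810586-41810612 and Ccng2 at chr5:93267547-93267574, are shown on the plus strand for comparison with Txnip.

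Sesn1: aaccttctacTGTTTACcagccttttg

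Ccng2: gtcgcagactCAAAACAAaaacaagggg

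The Sesn1 match is GTAAACA on the minus strand, at +23 to +29 from the RefSeq start of 1 of its 2 windows. The Ccng2 match lies at -16 to -9 from its RefSeq start. Both RefSeq starts lie inside the gene spans given below, and not at the first base of those spans. A match of letters is a description and not a binding site. Of these 3 genes, Txnip fell while Sesn1 and Ccng2 did not pass the test.

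Arrdc4, the arrestin relative of Txnip that MondoA also drives, had a log2 fold change of -0.36 (SE 0.16, edgeR adjusted p = 0.188). The log2 ratio of Txnip was below that of Arrdc4 in 5 of 5 embryos, with a mean difference of -0.81 (SD 0.35, exact two-sided sign-flip p = 0.0625, the smallest possible). Of 8 alpha-arrestin, MondoA and thioredoxin genes tested out of 10 listed, 1 rose and 1 fell by edgeR, with a median log2 fold change of 0.02. Arrdc3, which restrains receptor signalling, fell by 0.41 on the log2 scale (adjusted p = 0.0280), and Txn1, the thioredoxin that Txnip binds, rose by 0.29 (adjusted p = 0.0320). Neither call remained without the embryo block, without embryo 1 or without embryo 6, where 0 of the 8 genes were called. The count was 1 without embryo 2, without embryo 4 and with DESeq2.

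Ccng2 (ENSMUSG00000029385, chr5:93267257-93276231, plus strand) encodes cyclin G2, which slows the cell cycle. It measured 97.6, 116, 110, 93.5 and 95.9 CPM in the control teeth and 62.2, 108, 122, 74.5 and 62.1 CPM in the IGF1 teeth. The IGF1 teeth of embryos 1, 4 and 6 lay under all control teeth, while those of embryos 2 and 3 lay among or above them. Over all 5 embryos the log2 fold change was -0.29 (SE 0.11, edgeR adjusted p = 0.126), or 81.7% of control with an interval from 68.7% to 97.1%. Without embryo 3 it was -0.42 and passed the test (adjusted p = 0.0295).

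Its paralog Ccng1, a p53 target, rose by 0.60 on the log2 scale (SE 0.15, edgeR adjusted p = 0.0244), in 4 of 5 embryos. The log2 ratio of Ccng2 was below that of Ccng1 in 5 of 5 embryos, with a mean difference of -0.90 (SD 0.34, exact two-sided sign-flip p = 0.0625). Of the 15 p53 targets listed and tested, 2 rose by edgeR, Ccng1 and Tigar (0.77, adjusted p = 0.0306), and 0 fell, with a median of 0.30. The share called was 13.3%, against 11.5% of all genes in either direction and 6.72% as higher. Ccng1 is also in the list of cyclin G and sestrin relatives below. Sesn2, Cdkn1a and Bbc3 are also in the wider list of FoxO targets below. The median log2 ratio of the p53 list was 0.05, 0.69, 0.60, -0.29 and 0.15 in the 5 embryos, highest in embryos 2 and 3. By edgeR without the block, 1 of the 15 was called, and 0 were without embryo 2 or without embryo 6.

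Sesn1 (ENSMUSG00000038332, chr10:41809935-41908424, plus strand) and Sesn3 (ENSMUSG00000032009, chr9:14275067-14333101, plus strand) encode sestrins, stress proteins that restrain the growth kinase complex mTORC1. Sesn1 measured 73.2, 64.4, 74.1, 77.6 and 54.4 CPM in the control teeth and 61.0, 57.4, 69.7, 63.4 and 61.2 CPM in the IGF1 teeth. Sesn3 measured 588, 588, 557, 524 and 530 CPM in the control teeth and 480, 536, 608, 455 and 499 CPM in the IGF1 teeth. Both overlapped between groups and were lower with IGF1 in 4 of 5 embryos, all but embryo 6 for Sesn1 and all but embryo 3 for Sesn3. The log2 fold change of Sesn1 was -0.12 (SE 0.08, edgeR adjusted p = 0.383, interval 80.7% to 104% of control). That of Sesn3 was -0.12 (SE 0.07, adjusted p = 0.345, interval 82.5% to 103%). These intervals leave out a fall as large as those of Fbxo32 and Txnip. The third sestrin, Sesn2, a stress-induced gene, was higher in 5 of 5 embryos, with a log2 fold change of 0.72 that missed the threshold (adjusted p = 0.0548). A list of 5 genes held the cyclin G and sestrin relatives Ccng1, Ccni and Sesn2, together with Fbxo25 and Trim63. All but Trim63, which had no row, were tested. Of these 4 genes, 1 was called, Ccng1, and 0 were without embryos 1, 2, 3 or 6 in turn.

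Per kb of exon, Txnip was the most abundant of the 9 genes in the control teeth (58.7 ± 11.6 CPM per kb, SD, n = 5), followed by Sesn3 (36.5 ± 2.02). Foxo3, Ccng2 (18.8 ± 1.81), Sesn1 (17.3 ± 2.35) and Foxo4 came next, and the control ranges of neighbours among these 4 genes overlapped. Foxo1, Fbxo32 (5.26 ± 0.945) and Foxo6 were the lowest. In the IGF1 teeth Txnip was at 26.1 CPM per kb, under Sesn3 at 33.8, and Fbxo32 was at 2.07. With the longest transcript as length, control Sesn3 was at 61.1 and Txnip at 64.9, in the same order but with overlapping ranges.

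A wider list of 30 FoxO targets, apart from the 5 above, was read from the same fit. Of 24 tested, 2 rose and 7 fell by edgeR, with a median log2 fold change of -0.20. The median log2 ratio of the list was -0.26, -0.05, 0.04, -0.40 and -0.36 in the 5 embryos. The insulin receptor gene Insr fell by 0.45 on the log2 scale (adjusted p = 0.00248), from 148 to 180 CPM in control teeth to 106 to 135 CPM in IGF1 teeth. Irs2, the adaptor that links the insulin and IGF1 receptors to PI3K, fell by 0.96 (adjusted p = 3.18e-05), from 114 to 173 CPM to 65.5 to 79.4 CPM. Pdk4, a kinase that blocks pyruvate use, fell by 1.37 (adjusted p = 0.00889), from 8.25 to 11.2 CPM to 2.30 to 6.42 CPM. The groups did not overlap for any of these 3 genes, nor for Map1lc3b, which also fell. They were also apart, with IGF1 higher, for Sod2, Bnip3 and Sesn2 of this list. Of all genes, 3.03% were apart downward and 4.21% upward.

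The other falling targets were the repressor Bcl6 (-0.67, edgeR adjusted p = 0.0396), the mTORC2 subunit Rictor (-0.32, 0.0140) and the autophagy genes Gabarapl1 (-0.41, 0.0228) and Map1lc3b (-0.50, 0.00113). The mitochondrial superoxide dismutase gene Sod2 rose by 0.29 (adjusted p = 0.0429) and the mitophagy gene Bnip3 by 2.20 (adjusted p = 0.00193). Bnip3 is also a hypoxia gene and is counted in that list too. Igfbp1, G6pc, Pck1, Trim63 and Fasl had no row and were not analysed here, and Il7r did not pass the filter. Between 5 and 9 of the list were called when an embryo was left out, the lowest count being without embryo 1 or without embryo 6.

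**Figure D4:**
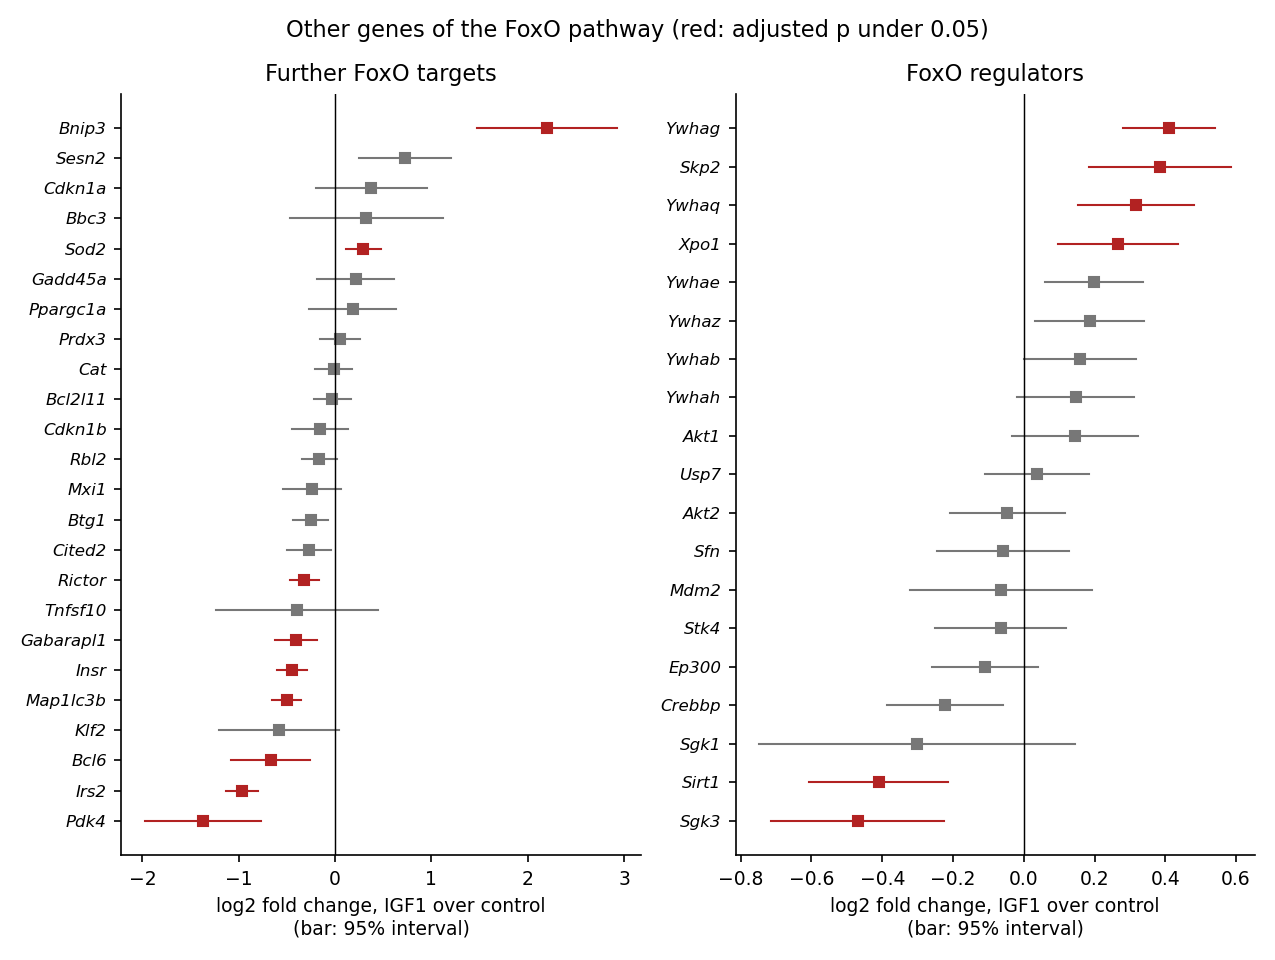
Log2 fold change, IGF1 over control, of each tested gene among the further FoxO targets (left) and the FoxO regulators (right), as squares with 95% intervals, in red where the edgeR test was passed and grey otherwise. Pdk4 (-1.37) and Irs2 (-0.96) are among the lowest and Bnip3 (2.20) is the highest of the further targets.

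Of 19 genes for proteins that act on FoxO factors, all tested, 4 rose and 2 fell by edgeR, with a median of 0.04. The 14-3-3 genes Ywhag (0.41, adjusted p = 0.00151) and Ywhaq (0.32, adjusted p = 0.0195) rose. So did Skp2, which marks FOXO1 for breakdown (0.39, adjusted p = 0.0207), and the nuclear exporter gene Xpo1 (0.27, adjusted p = 0.0485). The kinase gene Sgk3 fell by 0.47 on the log2 scale (adjusted p = 0.0208) and the deacetylase gene Sirt1 by 0.41 (adjusted p = 0.0144). The kinase genes Akt1 (0.14) and Akt2 (-0.05) were not called. By edgeR without the block 4 of the 19 were called, and between 1 and 6 were when an embryo was left out. The count was 2 without embryo 1, 1 without embryo 4 and 1 without embryo 6.

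Hypoxia response genes moved strongly in the same teeth. Of 17 tested out of 18 listed, 16 rose and 0 fell by edgeR, with a median log2 fold change of 1.68. The 16 genes ran from Egln1 (1.07), an oxygen sensor, to Ankrd37 (2.90), and included the glucose transporter gene Slc2a1, the glycolysis genes Pgk1, Ldha and Aldoa, the pyruvate dehydrogenase kinase gene Pdk1, the vessel growth factor gene Vegfa, the collagen hydroxylase genes P4ha1 and P4ha2, and Adm, Egln3, Ndrg1, Ero1a, Ddit4 and Bnip3. The summed level of all 18 listed genes was 1235 to 1977 CPM in control teeth and 2403 to 8362 CPM in IGF1 teeth. The median log2 ratio of the list was 0.62, 2.75, 2.37, 0.99 and 0.82 in the 5 embryos, so embryos 2 and 3 stood apart. In these embryos, Fbxo32 had log2 ratios of -1.08 and -0.93, against -1.69, -1.66 and -1.28 in embryos 1, 4 and 6. Ccng2 had -0.10 and 0.15, against -0.65, -0.33 and -0.62. Foxo3 had 0.72 and 0.18, against -0.12, -0.32 and -0.08, and Foxo1 had 0.25 and 0.37, against -0.22, 0.02 and 0.06. For these 4 genes embryos 2 and 3 had the highest ratios of the 5, which for Fbxo32 are its smallest falls. The other 5 genes did not have this order. Embryos 2 and 3 were singled out by the hypoxia list itself. The share of all genes with this order is not given here, so these 4 genes cannot be set against a background. Txnip had -1.43 and -0.90, against -1.35, -0.87 and -1.21, and Foxo6 had 1.78 and 0.54, against 0.78, 1.57 and 0.92. The part of the hypoxia response in the values of the 9 genes was not tested.

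**Figure D5:**
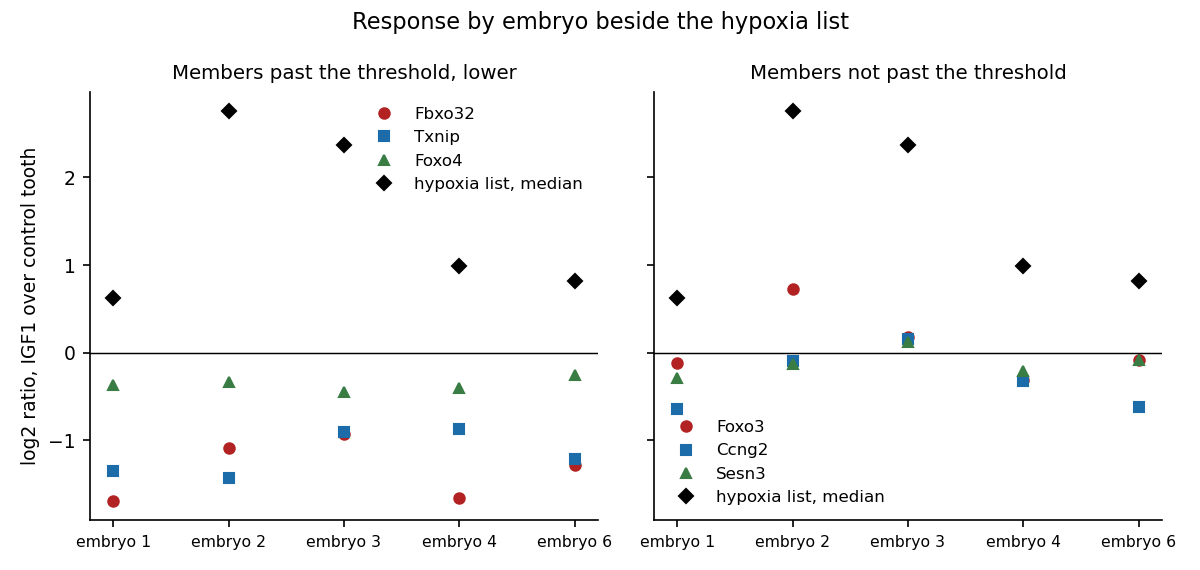
Log2 ratio, IGF1 over control tooth, in each of the 5 embryos (horizontal axis, no order implied) for 3 falling genes and 3 genes not past the threshold, with the median of the hypoxia list as diamonds. The diamonds reach 2.75 and 2.37 in embryos 2 and 3, while Fbxo32, Txnip and Foxo4 are below 0 in each embryo.

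Markers of a molar were present, and all 12 epithelial and all 12 dental mesenchyme genes listed were in the table and passed the filter. The epithelial sum was 1799 to 2571 CPM in control and 2080 to 2848 CPM in IGF1 teeth, and the mesenchymal sum 7666 to 9802 and 6972 to 9584 CPM. By edgeR, 1 epithelial gene rose (Krt5) and 2 mesenchymal genes fell (Vim and Pdgfra). These are 8.33% and 16.7% of the 2 lists, around the 11.5% called among all genes. Erythroid genes were lower, with 6 of 8 tested called and sums, over all 9 listed, of 866 to 1449 CPM in control and 615 to 1124 CPM in IGF1 teeth. Among other markers, 1 of 4 neuronal genes rose (Tubb3, 25.0%), 1 of 8 endothelial genes fell (Cdh5, 12.5%), 1 of 6 macrophage genes fell (Csf1r, 16.7%), 1 of 8 bone and cartilage genes rose (Sox9, 12.5%) and 0 of 2 glial genes were called. The erythroid share was 75.0%. The part of cell content in the values of the 9 genes was not tested. Library totals were 2845773 to 8403151 counts in control and 3456634 to 8763113 counts in IGF1 teeth, lowest in embryo 1 in both groups.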

How the data were processed

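Per the labels, each tooth was a library of its own. The authors deposited estimated counts per gene from Salmon 0.99.0, without normalization, after FastQC 0.11.8 and Trimmomatic 0.39, with build GRCm38, according to the submitters' processing notes. The transcript set and strand use are not given in the sources used here. All values are whole numbers, so rounding changed 0. Each row has at least 10 counts over all teeth, and 94 of 18381 identifiers are not in GENCODE release 21.

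Counts were tested with edgeR 4.0.16 in R 4.3.3 (TMM, filterByExpr, quasi-likelihood test, embryo as block). The procedure was also run on simulated counts, with results not reported here. In that simulation fewer genes changed than were called in these data, and as many rose as fell. Pairing follows the labels, which name the embryo of each tooth. After removal of group means, the teeth of embryos 1, 2, 3, 4 and 6 correlated at 0.319, 0.208, -0.0389, 0.170 and 0.313, against a median of -0.0463 for teeth of different embryos. Teeth of the same group differed beyond sampling noise (chi-square over its degrees of freedom 4.68 to 19.4). Intervals are 95%. Log2 ratios per embryo used a prior count of 2.

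All 9 genes were named. From each further gene list, every gene past the threshold was named. From the cell marker lists, genes past the threshold were named except in the erythroid list, and Myod1 and Ttn were named with their levels. Relatives and kinases not past the threshold were named for comparison. The 9 genes, the lists and this rule were chosen with earlier results of these data known, and some listed genes are not reported here. Alternatives used DESeq2 1.42.0, limma 3.58.1 (voom), other scalings and filters, no block, the longest transcript as length, and each embryo left out.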

Additional observations from a re-analysis of the deposited data

How the results depend on the processing

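Fbxo32 and Txnip kept direction and call in all 12 alternatives, and Foxo1, Sesn1 and Sesn3 stayed uncalled in the same direction. Without the replicate block, 887 genes were called (556 higher, 331 lower) in place of 1666, and Foxo4 was at -0.37 (edgeR adjusted p = 0.0728). Those called included 0 FoxO factors lower, 7 further FoxO targets in place of 9, and 4 FoxO regulators. They also included 0 alpha-arrestin, MondoA and thioredoxin genes and 1 p53 target. Apart from these counts and Foxo4, the block changed no call of the 9 genes. When an embryo was left out, 986 to 1602 genes were called (595 to 924 higher, 383 to 678 lower). FoxO factors called higher and lower each numbered 0 to 1, further targets 5 to 9 and regulators 1 to 6. Alpha-arrestin, MondoA and thioredoxin genes numbered 0 to 2, genes of the list of Ccng1, Ccni, Sesn2 and Fbxo25 0 to 2, and p53 targets 0 to 3. The log2 fold change of Foxo3 was reversed without replicate 2, at -0.083, and ran up to 0.18. That of Foxo4 ran from -0.39 to -0.34, of Foxo6 from 1.05 to 1.47 and of Ccng2 from -0.42 to -0.21. The call of Foxo4 was lost without embryo 4, that of Foxo6 without embryo 2, 4 or 6, and Ccng2 was called without embryo 3. DESeq2 called 1 gene of the alpha-arrestin, MondoA and thioredoxin list and gave no adjusted p for Foxo6. With limma-voom, 2 genes of the list of Ccng1, Ccni, Sesn2 and Fbxo25 were called. With the longest transcript as length, control Sesn3 was at 61.1 and Ccng2 at 22.6 CPM per kb. The cause of these shifts was not tested. Foxo6 rests on 5 to 40 reads per tooth, and embryo 1 had the fewest counts.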

Other observations

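For the 3 genes with the largest called change, the genes with the most similar pattern were sought by the root mean square (RMS) difference of their 5 log2 ratios within embryos, over 14504 genes. Nearest to Fbxo32 were Anxa8 (RMS difference 0.191, log2 fold change -1.34), Trpm1 (0.278, -1.40) and Calcoco1 (0.287, -1.12). Nearest to Txnip were Cadm3 (0.134, -1.04), Selenop (0.198, -1.23) and Fmo5 (0.205, -1.34). Nearest to Foxo6 were Creld2 (0.212, 1.05), Camkk1 (0.232, 1.19) and Pmvk (0.272, 1.11). The genes of a pair share the same 10 libraries, so this likeness is a description.

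No tooth stood apart from the other 4 of its group in any of the 9 genes by Dixon's ratio at the 95% level. The ratio was at most 0.602 over the 18 groups of 5 teeth, against a critical value of 0.710. It looks for a single outlying tooth and cannot see teeth that are high together. For Foxo1, the IGF1 teeth of embryos 2 and 3 were at 92.2 and 91.2 CPM, and the others at 65.5 to 68.7 CPM. The ratio of the highest was 0.037.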
